A study of Homo sapiens with 2 samples.

Results

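The genes described here encode the proteins that prepare origins of DNA replication and copy the DNA at the replication fork. They are 50 genes listed by name, with earlier results of these data known, from the 19775 genes that the array annotation assigned to a probe set of 1 gene only. All 50 were found under their current symbol and were represented by 90 probe sets, of which 82 were measured, that is, above the median signal of their array in at least 1 array. The genes were sorted by role into origin licensing (9 genes), the replicative helicase and its activators (15 genes), the DNA polymerases (10 genes), the clamp loader and Okazaki fragment processing (9 genes), and fork protection (7 genes).

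The study compared Calu-3 cells under cyclic mechanical stretch with Calu-3 cells left without it. Calu-3 is an established human lung adenocarcinoma line that grows as an epithelial sheet and is used as a model of the bronchial epithelium. The stretched culture was pulled for 18 h, with stretch cycling as a sine wave from a minimum of 0.7% to a maximum of 20% (2 s on, then 2 s off), and the non-stretched culture was kept for the same 18 h. Both were grown on flexible plates coated with type I collagen to about 80% confluence and held in MEM with 10% foetal bovine serum, and biotin-labelled cRNA from 6 ug of total RNA was hybridised to Affymetrix arrays. Each condition was measured on 1 array, so there is no SD and no test between the conditions, and each difference below compares these 2 arrays. How many wells stood behind each array is not given in the sources used here.

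DNA is copied once per cell cycle. In G1 phase the origin recognition complex, CDC6 and CDT1 load the ring-shaped MCM helicase onto origins in an inactive form, a step called licensing. In S phase the kinase made of CDC7 and DBF4, together with further factors, recruits CDC45 and the GINS complex to the loaded ring, which then unwinds DNA ahead of 3 polymerases, a sliding clamp and its loader. Transcripts of many of these genes are known to be low in resting cells and to rise at the G1 to S transition under E2F transcription factors.

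The 2 arrays were alike in their overall scale. The floor, set at the median of each array, was 28.4 in the stretched and 28.7 in the non-stretched array, and the median log2 difference over 13453 measured genes was 0.005. Hybridisation spike-ins had a median log2 difference of -0.11 over 18 probe sets. Control ratios of the 3' over the 5' end, a sign of RNA integrity, were 1.01 in the stretched and 1.04 in the non-stretched array for ACTB, and 0.862 in the stretched and 0.878 in the non-stretched array for GAPDH. Control probe sets for the 5' end and middle of the large ribosomal RNA were brighter in the stretched array. Their signals were 5917 and 5338 in the stretched and 3149 and 657 in the non-stretched array. The control for its 3' end lay below the floor in both, with 11.9 in the stretched and 1.36 in the non-stretched array. Controls for the 5' end, middle and 3' end of the small ribosomal RNA were all dimmer in the stretched array, with log2 differences of -0.12, -0.31 and -0.76. The part of these ribosomal differences in the results was not tested. All 8 epithelial markers were above the floor in both arrays, with summed signals, most of them from keratins, of 47310 in the stretched and 49408 in the non-stretched array. However, 2 of the 8 were lower in the stretched array by 2-fold or more, against 7.49% of all measured genes: the mucin MUC1 had 767 in the stretched and 2093 in the non-stretched array, and the epithelial transcription factor ELF3 had 809.9 in the stretched and 2934 in the non-stretched array. The part of this in the results was not tested. Of 20 named markers of fibroblasts, endothelium, leukocytes and smooth muscle, 5 were above the floor in the stretched and 6 in the non-stretched array, the brightest of them COL1A1 with 105 in the stretched and 126 in the non-stretched array, and none was listed at 0.

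Transcripts of the replication machinery were, for the most part, more abundant in the stretched array. Each gene was represented by its brightest probe set, and all 50 genes were above the floor in both arrays. Of the 50 genes, 40 (80%) were at least 2-fold higher in the stretched array and 0 were at least 2-fold lower, against 7.78% of all measured genes in the first direction and 7.49% in the second. A further 10 genes differed by less than 2-fold. At least 4-fold higher were 19 of the 50 genes, against 1.45% of all measured genes, and at least 8-fold higher were 6 of them (MCM10, CDC45, GINS2, CLSPN, POLE2 and ORC1), against 0.23%. The median log2 difference was 1.83, beside 0.005 over all measured genes, and 49 of the 50 genes lay above 0, against 50.5% of all measured genes. With the arrays centred on the spike-ins, 41 of the 50 genes were at least 2-fold higher, against 9.79% of all measured genes in that direction and 6.17% in the other. With the floor raised to the 75th percentile, ORC1, POLD1, POLE, DNA2 and WDHD1 were under 2-fold, since their non-stretched signals then lay on the floor. The arrays measured RNA from whole cultures, in which a larger share of cells that express these genes and more RNA per cell cannot be told apart.

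**Figure D1:**
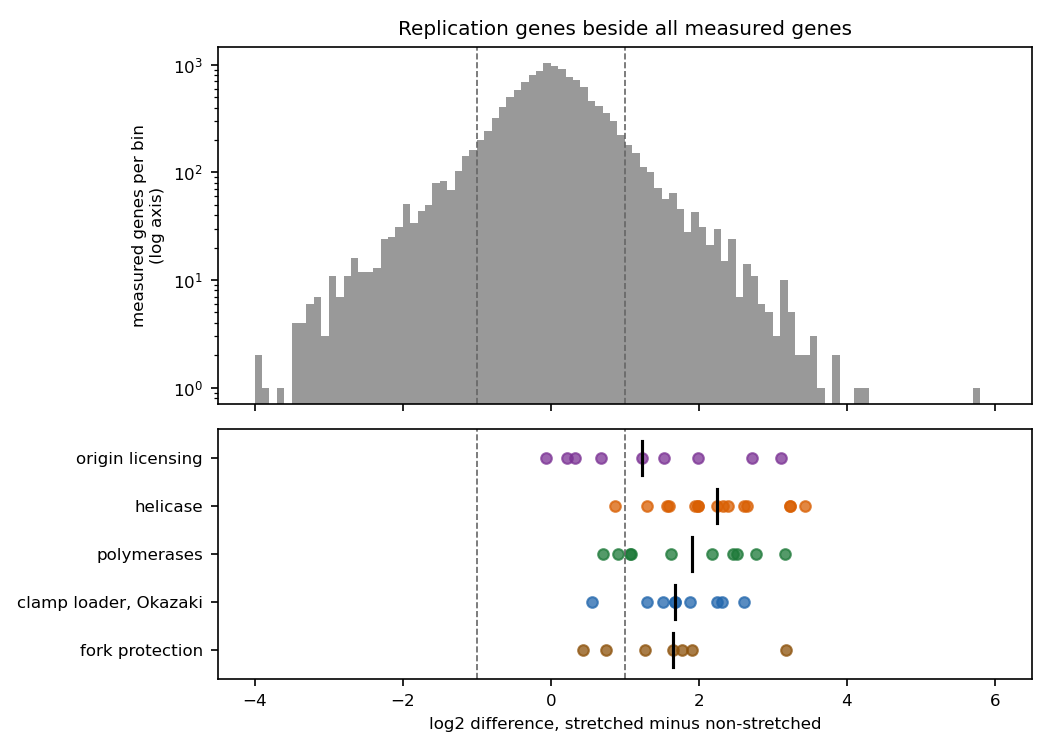
Log2 difference, stretched minus non-stretched. The upper panel counts all 13453 measured genes in bins on a log axis, and the lower panel has 1 point per replication gene, by role, with a black bar at each group's median. Dashed lines mark 2-fold in each direction; 40 of the 50 points lie to the right of the right-hand line and 0 to the left of the left-hand line.

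The medians differed between the roles. The helicase group had the highest median log2 difference, 2.24, with 14 of its 15 genes at least 2-fold higher. The polymerases followed with 1.90 and 8 of 10 genes, the clamp loader and Okazaki fragment group with 1.68 and 8 of 9, and fork protection with 1.64 and 5 of 7. Origin licensing had the lowest median, 1.23, with 5 of 9 genes at least 2-fold higher. The order of the groups in between changed with the processing. With averaged probe sets the clamp loader and Okazaki fragment group had 2.01 and the polymerases 1.90. With the floor at the 75th percentile the polymerases had 1.07, below fork protection at 1.28. The groups overlapped widely: origin licensing ran from -0.06 to 3.10, and the helicase group from 0.86 to 3.44. For scale, the SD of a single probe set's log2 difference was estimated from 2 probe sets per gene. These were the brightest ones with neither signal under the floor. The SD was 0.36 from 5818 genes and 0.64 by the same estimate from 20 of the replication genes. It covers probe noise but no variation between cultures.

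Because the genes were higher together, the DNA around their start sites is shown for the 4 genes with the highest differences and the 2 with the lowest, among those with a promoter window in the table used. Each window is from RefSeq (GRCh38.p14) and runs from 250 bases before to 50 bases after the transcription start. MCM10 had a signal of 1638 in the stretched and 151.0 in the non-stretched array, and its window lies at chr10:13161308-13161607 on the plus strand. CDC45 had 1868 in the stretched and 198 in the non-stretched array, and the first of its 3 windows lies at chr22:19479670-19479969 on the plus strand. GINS2 had 2634 in the stretched and 280.0 in the non-stretched array, and its window lies at chr16:85688905-85689204 on the minus strand. These 3 genes belong to the group of the helicase and its activators, and their stretched signals were each over 8 times the non-stretched ones. CLSPN, of the fork protection group, had 582 in the stretched and 64.4 in the non-stretched array, and its window lies at chr1:35769929-35770228 on the minus strand. At the other end, ORC3 had 1179 in the stretched and 1010 in the non-stretched array, with a window at chr6:87589885-87590184 on the plus strand. ORC4 had 1440 in the stretched and 1506 in the non-stretched array, with the first of its 2 windows at chr2:148021502-148021801 on the minus strand. The sequences below read 5′ to 3′ on the gene's own strand, and capitals mark words that resemble the binding site of E2F factors, on either strand.
MCM10: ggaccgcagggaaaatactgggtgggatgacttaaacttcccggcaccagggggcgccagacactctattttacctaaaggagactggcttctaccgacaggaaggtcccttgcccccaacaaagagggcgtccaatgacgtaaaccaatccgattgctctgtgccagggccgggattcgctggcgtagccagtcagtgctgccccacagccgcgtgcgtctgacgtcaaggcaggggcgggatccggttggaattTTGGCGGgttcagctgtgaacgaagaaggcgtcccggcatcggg
CDC45: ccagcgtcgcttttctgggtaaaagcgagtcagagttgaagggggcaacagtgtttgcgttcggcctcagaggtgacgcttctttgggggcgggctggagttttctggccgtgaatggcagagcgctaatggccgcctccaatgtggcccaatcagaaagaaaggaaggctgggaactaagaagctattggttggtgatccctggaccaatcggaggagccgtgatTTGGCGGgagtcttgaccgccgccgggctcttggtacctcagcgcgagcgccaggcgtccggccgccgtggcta
GINS2: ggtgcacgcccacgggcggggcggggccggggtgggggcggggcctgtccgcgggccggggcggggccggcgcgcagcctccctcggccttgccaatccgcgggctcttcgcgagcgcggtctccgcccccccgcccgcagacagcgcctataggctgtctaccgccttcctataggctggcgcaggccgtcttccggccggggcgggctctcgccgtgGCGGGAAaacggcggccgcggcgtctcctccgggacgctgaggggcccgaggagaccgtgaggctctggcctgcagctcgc
CLSPN: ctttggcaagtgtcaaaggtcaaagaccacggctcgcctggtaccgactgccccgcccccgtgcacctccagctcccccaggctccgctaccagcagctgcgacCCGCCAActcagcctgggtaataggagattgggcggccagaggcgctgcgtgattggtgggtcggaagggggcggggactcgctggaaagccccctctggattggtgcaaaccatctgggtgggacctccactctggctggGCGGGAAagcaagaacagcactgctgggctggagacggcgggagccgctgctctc
ORC3: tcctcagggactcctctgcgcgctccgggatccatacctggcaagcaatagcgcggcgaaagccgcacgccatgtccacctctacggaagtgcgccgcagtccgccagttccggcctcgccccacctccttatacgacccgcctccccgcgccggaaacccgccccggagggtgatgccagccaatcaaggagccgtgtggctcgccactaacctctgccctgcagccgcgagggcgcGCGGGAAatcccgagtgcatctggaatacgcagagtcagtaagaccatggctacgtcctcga
ORC4: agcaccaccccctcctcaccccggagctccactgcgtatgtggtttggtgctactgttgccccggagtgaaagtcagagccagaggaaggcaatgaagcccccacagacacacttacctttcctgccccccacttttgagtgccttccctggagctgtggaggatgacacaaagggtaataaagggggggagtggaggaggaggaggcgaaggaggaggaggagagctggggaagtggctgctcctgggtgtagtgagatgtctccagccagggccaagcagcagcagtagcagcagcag

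The E2F-like words searched, on both strands, were TTTCCCGC, TTTCGCGC, TTTGCCGC and TTTGGCGC (the long words) and the same words without their first T (the short words, found wherever a long word is). A variant word, TTGGCGG, was added after these windows had been seen. A long word began 31 bases before the start in GINS2 and 5 bases before it in CLSPN. The variant word began 146 bases before the start in CLSPN, 24 bases before it in CDC45 and at base 7 after it in MCM10. ORC3, whose signal differed by only 0.22 on the log2 scale, also held a long word, 12 bases before its start, and the printed window of ORC4 held none. Such words were thus present at both ends of the range of differences.

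Promoter windows were in the table for 43 of the 50 genes, 56 windows in all. A long word was in 39.3% of these windows, against 3.31% of all 35116 windows, and a short word in 60.7%, against 13.0%. The comparison windows here and below were not limited to genes measured on the arrays, and they were not matched for base composition. These shares describe the sequences of the listed genes and not the difference between the arrays. The variant word was in 19.6% of the genes' windows, against 3.43% of all windows. It was chosen after the printed windows had been seen, and those of MCM10, CDC45 and CLSPN are counted in this share. The share is therefore no independent support. Counted by gene, 32 of the 43 genes had a short word in at least 1 window, against 15.3% of all 27305 genes with a window. Of these 32, 27 were at least 2-fold higher in the stretched array, against 7 of the 11 genes without it. The median log2 difference was 1.89 in the genes with a short word and 1.30 in those without, with ranges of 0.22 to 3.23 and -0.06 to 3.44 that overlap almost fully. CCAAT boxes (CCAAT) were in 50% of the genes' windows, against 34.6% of all windows, and GC boxes (GGGCGG), which can overlap an E2F-like word, in 76.8%, against 45.0%. The split by gene differed among the words. At least 2-fold higher were 20 of 22 genes with a long word and 14 of 21 without it, but 8 of 11 genes with the variant word and 26 of 32 without it, 19 of 24 genes with a CCAAT box and 15 of 19 without it, and 26 of 34 genes with a GC box and 8 of 9 without it. The CHR word of genes expressed in G2 and M phase (TTTGAA) was in 2 of the 56 windows, or 3.57%, against 15.2% of all windows. The 2 windows belong to DBF4 and POLE3. This word is rich in A and T, and the part of base composition in its low share was not tested. A matching word is a description of these letters and not a binding site.

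In origin licensing, the loading factors and 2 of the 6 origin recognition subunits were at least 2-fold higher by their brightest probe sets, while the other 4 subunits were under 2-fold. ORC1, the largest ATPase subunit of the complex, had a signal of 412 in the stretched and 47.9 in the non-stretched array, 8.60-fold higher, by its 1 probe set. ORC6, the smallest subunit, had 1980.2 in the stretched and 499.7 in the non-stretched array, 3.96-fold higher, by a probe set ending in _x_at, a type that can bind related transcripts. On the log2 scale these differences were 3.10 and 1.99. The SD of a single probe set, 0.36 over all genes and 0.64 over the replication genes (widened by GINS2), holds no variation between cultures. With the floor at the 75th percentile ORC1 stood at 0.83, a lower bound. ORC5 had 820 in the stretched and 511 in the non-stretched array, 1.60-fold higher, and its second measured probe set stood at 1.19 on the log2 scale. ORC2 had 467 in the stretched and 373 in the non-stretched array, a log2 difference of 0.32, with 0.43 in its other probe set. For ORC3 and ORC4, whose signals stand beside their promoters, the log2 differences were 0.22 and -0.06. ORC4 was the only one of the 50 genes below 0 by its brightest probe set, and the dimmer one stood at 0.37; with the arrays centred on the spike-ins its brightest probe set lay above 0, at 0.05.

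CDT1, which brings the MCM ring to the origin, was the second highest gene of the licensing group, with a signal of 865 in the stretched and 132 in the non-stretched array, 6.56-fold higher. Its brightest probe set ends in _x_at and the other, ending in _s_at, stood at 2.55 on the log2 scale. CDC6, the ATPase that works with CDT1, had 5028 in the stretched and 1743 in the non-stretched array, 2.88-fold higher, and its 2 probe sets were within 0.06 of each other on the log2 scale. GMNN encodes geminin, the inhibitor that binds CDT1 after origins have fired. It had 5512 in the stretched and 2353 in the non-stretched array, 2.34-fold higher. The loader CDT1 and its inhibitor were therefore both higher in the stretched array, CDT1 by 2.71 and GMNN by 1.23 on the log2 scale.

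**Figure D2:**
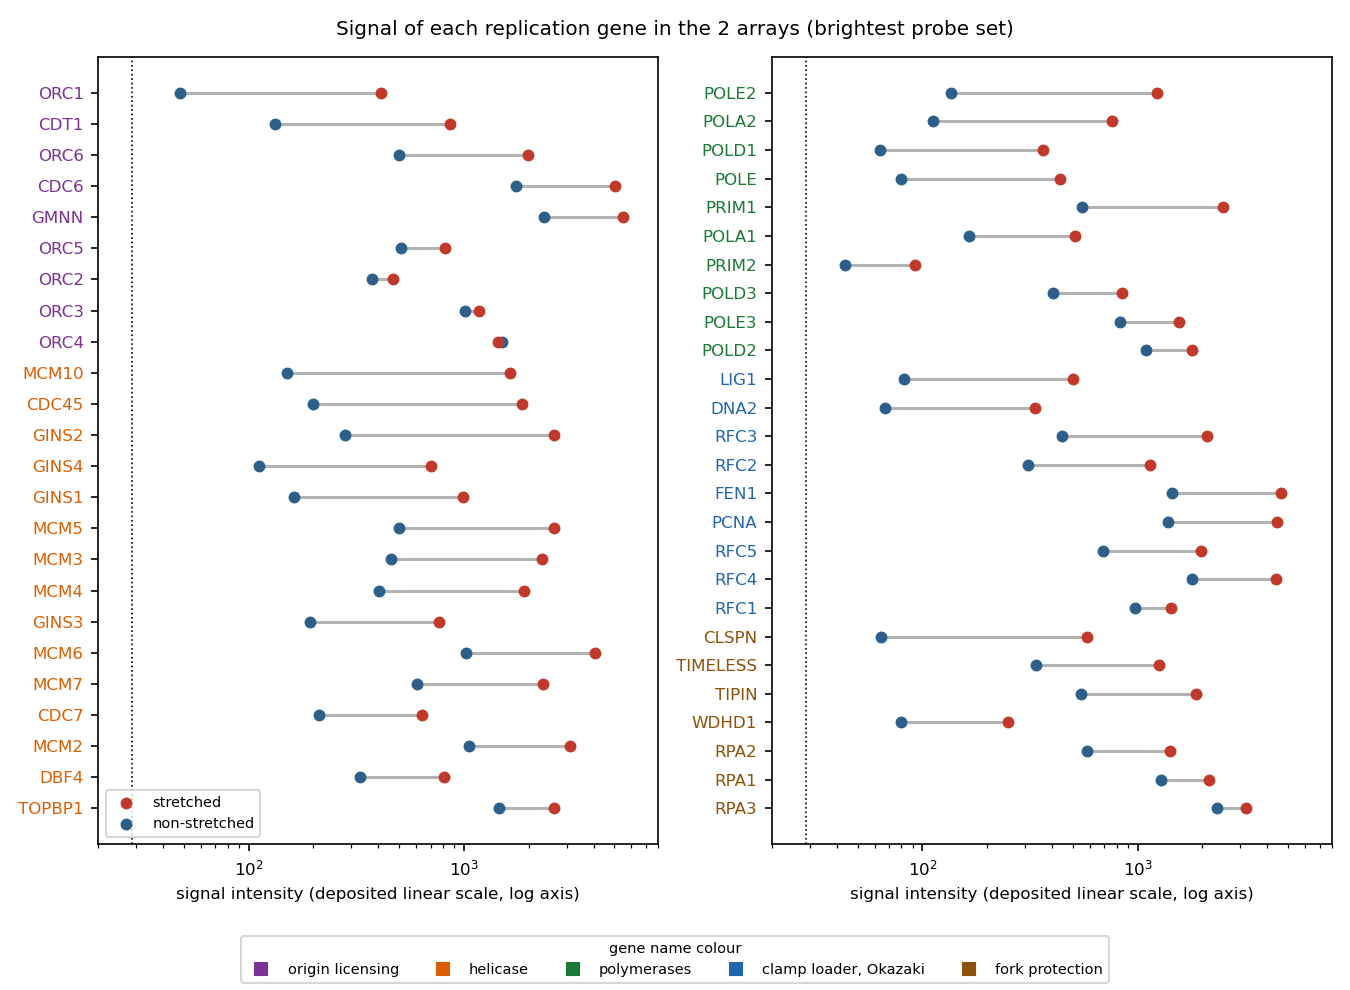
Signal intensity of each of the 50 genes by its brightest probe set, on a log axis, with the stretched array in red and the non-stretched array in blue; the dotted line is the floor of 28.7. Names are coloured by role and sorted by difference within it. The red point lies to the right of the blue one for every gene except ORC4, whose direction turns when the arrays are centred on the spike-ins.

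The 6 subunits of the MCM ring were higher together, within a narrow range by their brightest probe sets. MCM2 had a signal of 3124 in the stretched and 1056 in the non-stretched array, 2.96-fold higher, which was the smallest difference of the ring. MCM5 had 2610.3 in the stretched and 498 in the non-stretched array, 5.24-fold higher, the largest. By these probe sets the ring's log2 differences spanned 0.82, against 3.17 for the 6 origin recognition subunits. With averaged probe sets the ring ran more widely, from 1.56 (MCM2) to 2.93 (MCM4). MCM3 had 2298 in the stretched and 458 in the non-stretched array, 5.02-fold higher. MCM4 had 1902 in the stretched and 402 in the non-stretched array, 4.73-fold higher, and its other measured probe sets stood at 2.71 (a lower bound), 2.98 and 3.77 on the log2 scale, the last over 1 away from the brightest. MCM6 had 4051 in the stretched and 1020.2 in the non-stretched array, 3.97-fold higher, and its dimmer probe set, below the floor without stretch, was at least 5.26-fold higher. The 6 genes thus lay on the same side in every measured probe set, MCM7 included, which had 2332 in the stretched and 602 in the non-stretched array, 3.87-fold higher.

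The GINS complex joins the ring to CDC45 in the active helicase, and its 4 subunits ran from 1.99 to 3.23 on the log2 scale. By its brightest probe set GINS2 was 9.41-fold higher, and by a dimmer one, below the floor without stretch, at least 4.74-fold higher. The dimmest of its probe sets, near the floor, went the other way, with 38.6 in the stretched and 48.5 in the non-stretched array, a log2 difference of -0.33. GINS2 was 1 of only 2 genes with measured probe sets of both signs, the other being ORC4. GINS1 had 992 in the stretched and 163 in the non-stretched array, 6.10-fold higher, and GINS4 had 701 in the stretched and 112 in the non-stretched array, 6.25-fold higher. GINS3 had 766 in the stretched and 193 in the non-stretched array, 3.98-fold higher. CDC45, with 1 probe set, was 9.41-fold higher.

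Among the factors that turn the loaded ring into an active helicase, the differences were uneven. MCM10, which acts when the helicase starts to unwind, was 10.8-fold higher, the largest difference of the 50 genes, and its 3 probe sets lay between 3.43 and 3.63 on the log2 scale. The kinase subunit CDC7 had 638 in the stretched and 211 in the non-stretched array, 3.02-fold higher. Its activating partner DBF4 had 810.5 in the stretched and 329 in the non-stretched array, 2.46-fold higher. TOPBP1, a scaffold for helicase assembly and for activation of the checkpoint kinase ATR, had 2632 in the stretched and 1448 in the non-stretched array. At 1.82-fold higher it was the 1 gene of the helicase group under 2-fold.

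**Figure D3:**
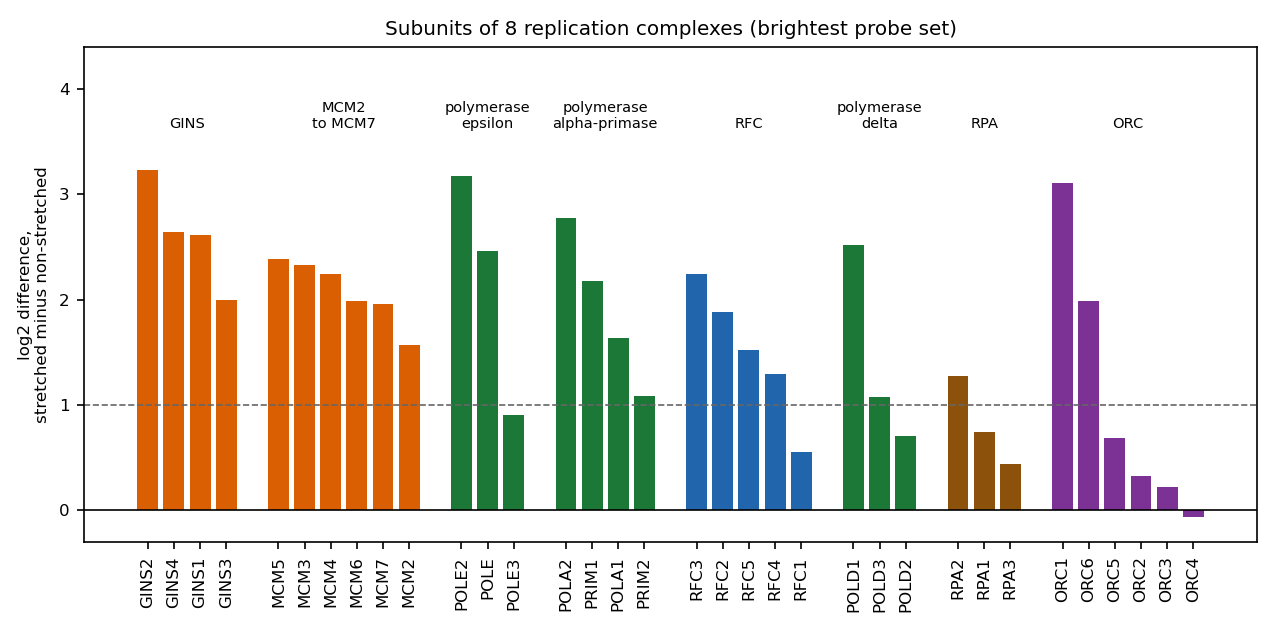
Log2 difference, stretched minus non-stretched, of the subunits of 8 replication complexes, 1 bar per gene by its brightest probe set, coloured by role, with a dashed line at 2-fold. All bars of GINS, of MCM2 to MCM7 and of polymerase alpha-primase exceed the line, whereas 2 of 6 do so for ORC and 1 of 3 for RPA.

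Polymerase alpha-primase lays down the short RNA and DNA primers from which synthesis starts. Its catalytic subunit POLA1 had a signal of 512 in the stretched and 165 in the non-stretched array, 3.10-fold higher. POLA2, the second polymerase subunit, had 761 in the stretched and 112 in the non-stretched array, 6.83-fold higher, and its dimmer probe set stood lower, at 1.77 on the log2 scale. The primase catalytic subunit PRIM1 had 2491 in the stretched and 551 in the non-stretched array, 4.52-fold higher. All 4 genes of the complex were at least 2-fold higher. The large primase subunit PRIM2 was the closest to that line in its complex, with 92.6 in the stretched and 43.6 in the non-stretched array, 2.12-fold higher. PRIM2 was under 2-fold when both arrays were centred at their 75th percentile, at 0.98 on the log2 scale, and with a pseudocount of 16, at 0.86.

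In the polymerases that extend the primers, the catalytic subunits differed more than some of their partners. POLE, the leading-strand catalytic subunit, had 438 in the stretched and 79.5 in the non-stretched array, 5.50-fold higher. POLE2, its B subunit, had 1229 in the stretched and 137 in the non-stretched array, a log2 difference of 3.17. POLE3, a histone-fold subunit that also serves in a chromatin remodelling complex, had 1550 in the stretched and 829 in the non-stretched array, 1.87-fold higher. The log2 differences within polymerase epsilon thus spanned 2.27. POLD1, the catalytic subunit of the lagging-strand polymerase delta, had 365 in the stretched and 63.8 in the non-stretched array, 5.72-fold higher. Its accessory subunit POLD3 had 849 in the stretched and 404 in the non-stretched array, 2.10-fold higher, and POLD2 had 1784 in the stretched and 1098 in the non-stretched array, 1.62-fold higher. POLD3 lay near the 2-fold line: it stood at 0.96 on the log2 scale when both arrays were centred at their 75th percentile. With the floor at the 75th percentile, POLE stood at 0.92 and POLD1 at 0.66 on the log2 scale, both lower bounds. POLE3, POLD2 and POLD3 then stood at 0.90, 0.70 and 1.07, so the contrast does not show in that setting.

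The sliding clamp PCNA, which tethers polymerases to DNA, had a signal of 4442 in the stretched and 1390.0 in the non-stretched array, 3.20-fold higher by its 1 probe set. The clamp loader RFC places it on DNA. RFC3 had 2109 in the stretched and 446 in the non-stretched array, 4.73-fold higher, with 2.55 on the log2 scale in its next brightest probe set and a lower bound of 2.20 in the dimmest one. RFC2 had 1141 in the stretched and 309 in the non-stretched array, 3.69-fold higher, and RFC4 had 4398 in the stretched and 1793 in the non-stretched array, 2.45-fold higher. RFC5 had 1974 in the stretched and 690.5 in the non-stretched array, 2.86-fold higher, but its 3 probe sets disagreed in size, from 0.40 to 2.03 on the log2 scale. These 4 small subunits also form part of other clamp loaders, whereas RFC1 belongs to the PCNA loader. RFC1 differed least, with 1431 in the stretched and 977 in the non-stretched array, 1.46-fold higher, and 0.71 on the log2 scale in its other measured probe set.

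The enzymes that finish Okazaki fragments were higher, each by over 3-fold. FEN1, the nuclease that removes primer flaps, had 4629 in the stretched and 1447 in the non-stretched array, 3.20-fold higher, and the dimmer of its 2 probe sets stood at 2.39 on the log2 scale. LIG1, which seals the nicks, had 503 in the stretched and 82.3 in the non-stretched array, 6.11-fold higher. DNA2, a nuclease and helicase for long flaps, had 335 in the stretched and 67.3 in the non-stretched array, 4.98-fold higher.

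Of the genes that stabilise the fork, the checkpoint mediator CLSPN (claspin) was 9.04-fold higher by its brightest probe set. Its other 2 measured probe sets lay near the floor in the stretched array, with 32.0 and 34.1, and below it in the non-stretched array, with 7.22 and 4.11; their differences, 0.16 and 0.25 on the log2 scale, are lower bounds. TIMELESS and TIPIN form a complex that travels with the fork. TIMELESS had 1260.2 in the stretched and 336 in the non-stretched array, 3.75-fold higher, and TIPIN had 1871 in the stretched and 548 in the non-stretched array, 3.41-fold higher. By their brightest probe sets the partners stood at 1.91 and 1.77 on the log2 scale. The other probe set of TIMELESS, below the floor without stretch, gave a lower bound of 0.98, so TIMELESS was under 2-fold when the probe sets of the _x_at and _s_at types were left out, and at 1.44 with its probe sets averaged. WDHD1, also called AND-1, links polymerase alpha to the helicase and had 249.98 in the stretched and 79.95 in the non-stretched array, 3.13-fold higher, with 3 probe sets from 1.62 to 1.70 on the log2 scale.

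RPA, the complex that coats single-stranded DNA in replication and in repair, had a median log2 difference of 0.74, and 1 of its 3 subunits was at least 2-fold higher. RPA2 had a signal of 1409 in the stretched and 582 in the non-stretched array, 2.42-fold higher. RPA1, the large subunit, had 2145 in the stretched and 1280 in the non-stretched array, 1.68-fold higher, with 0.56 on the log2 scale in its next brightest probe set and a lower bound of 0.79 in the dimmest measured one. RPA3 had 3177 in the stretched and 2342 in the non-stretched array, 1.36-fold higher.

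The several probe sets of a gene measure the same RNA and are no replicates, but they show how far a value depends on the probe. Of the 82 measured probe sets, 62 were at least 2-fold higher in the stretched array, against 8.66% of all 24977 measured probe sets of 1 gene, and 0 were at least 2-fold lower, against 6.48%. Above 0 lay 80 of the 82, against 53.3% of all measured probe sets of 1 gene. Of the 23 genes with at least 2 measured probe sets, 21 had them all of 1 sign, and in 14 they were all at least 2-fold higher, against 67.6% and 3.35% of the 6576 genes with at least 2 measured probe sets. However, a further count left out probe sets with a signal under the floor in either array. Among genes at least 2-fold different by the brightest, the second then had the same sign in 14 of 15 replication genes (93.3%). The share was 92.7% over all such genes. The exception was GINS2, where the dimmest probe set, at -0.33 on the log2 scale, served as the second. Its second brightest, left out in this count only, had a lower bound of 2.24. With lower bounds taken at their value, a probe set over 1 on the log2 scale from the brightest one was found in 5 genes, MCM4, GINS2, POLA2, RFC5 and CLSPN. Values from a single measured probe set, which 27 of the 50 genes rest on, carry no such check.

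**Figure D4:**
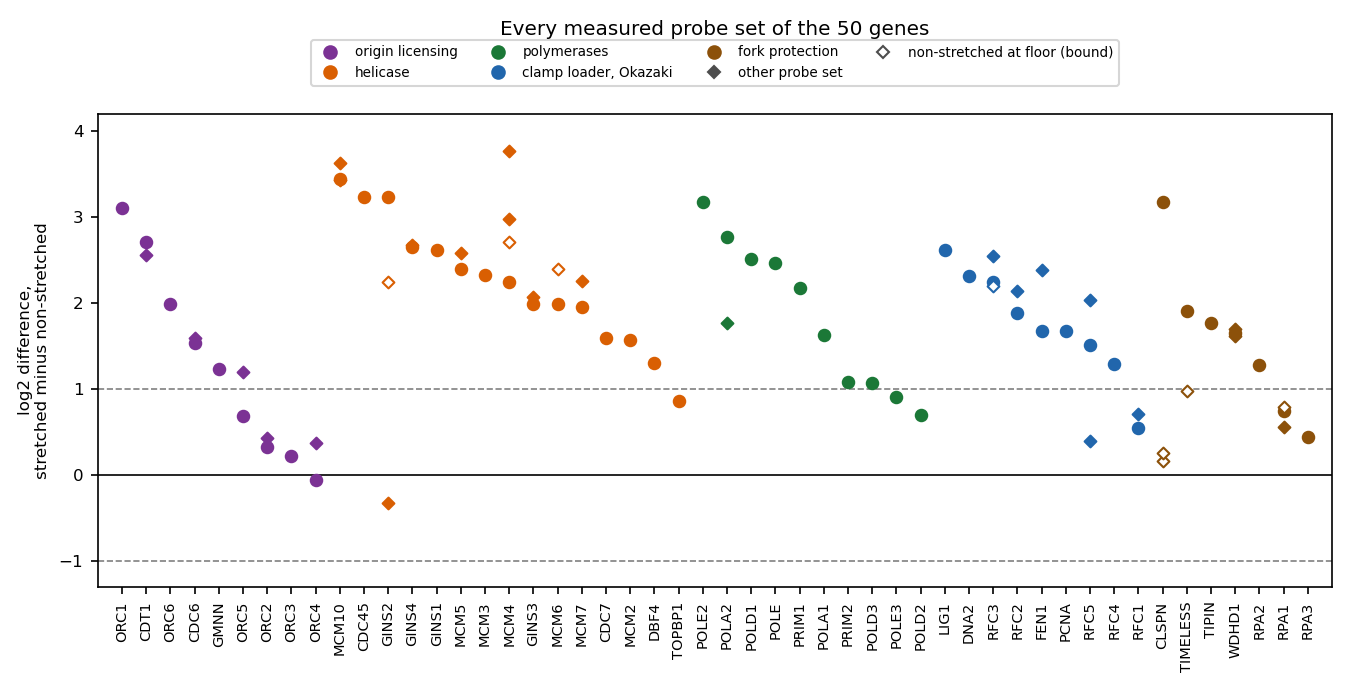
Log2 difference, stretched minus non-stretched, of all 82 measured probe sets, by gene and role. Circles are the brightest probe set of a gene, diamonds its other ones, and open symbols are lower bounds because the non-stretched signal was below the floor; dashed lines mark 2-fold. Of the 82 symbols, 62 lie at or above the upper line and 2 lie below 0.

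Other genes of DNA synthesis outside the 50 were read from 5 lists, and their counts stand against the 7.78% (higher) and 7.49% (lower) of all measured genes past 2-fold. Of 9 measured genes that assist initiation, 6 reached 2-fold higher and 0 reached 2-fold lower (median 1.46 on the log2 scale). TICRR, which helps recruit CDC45, had a signal of 279 in the stretched and 38.7 in the non-stretched array, 7.22-fold higher, and a second probe set, below the floor without stretch, gave a lower bound of 0.77 on the log2 scale. RECQL4, DONSON and MCM8 stood at 2.18, 1.96 and 1.59. The acetyltransferase KAT7 stood at -0.38, PHIP at 0.38 and MCM9 at 0.36. MCM9 had 2 measured probe sets of opposite sign, the dimmer one at -0.39, so its direction depends on the probe set. Of 16 fork accessory genes, 7 reached 2-fold higher and 0 reached 2-fold lower, with a median of 0.86. DSCC1, of an alternative clamp loader, was 8.83-fold higher by its brightest probe set, while the dimmer one stood at -0.28 on the log2 scale. CHTF18 of the same loader stood at 1.86, the clamp-unloading factor ATAD5 at 2.22 and the clamp-associated factor PCLAF at 1.52. The dimmer probe set of PCLAF stood further up, at 3.70.

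The lists of checkpoint, turnover and repair genes had medians nearer to 0. Of 8 genes that control the breakdown of licensing factors, 2 were at least 2-fold higher: DTL, the adaptor through which CDT1 is destroyed, was 5.44-fold higher, and SKP2 was 2.72-fold higher. USP37 and CUL1 stood at 0.82 and 0.76 on the log2 scale, and the list's median was 0.51. Of 7 measured checkpoint genes, 1 differed upwards by at least 2-fold and 1 downwards, near the shares of 7.78% and 7.49% over all measured genes, with a median of 0.31. The checkpoint kinase CHEK1 was 3.85-fold higher by its brightest probe set, with 4 probe sets from -0.24 to 2.14 on the log2 scale. RAD17, which loads the checkpoint clamp, was 2.12-fold lower, and its 3 probe sets ran from -1.08 to -0.82. RAD9A stood at 0.92 and the kinase ATR at -0.40.

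Among 13 measured polymerases of repair, translesion and mitochondrial synthesis, 2 differed upwards by at least 2-fold and 1 downwards, with a median of 0.45. POLQ, the polymerase of end joining by short homology, had a signal of 334 in the stretched and 54.4 in the non-stretched array, 6.14-fold higher. POLH was 2.50-fold higher by its brightest probe set, but another of its 5 measured probe sets stood at -1.05 on the log2 scale. POLI had 82.3 in the stretched and 311 in the non-stretched array, 3.78-fold lower, whereas the dimmer of its probe sets stood at -0.36 on the log2 scale. POLG2, of the mitochondrial polymerase, stood at 0.77.

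**Figure D5:**
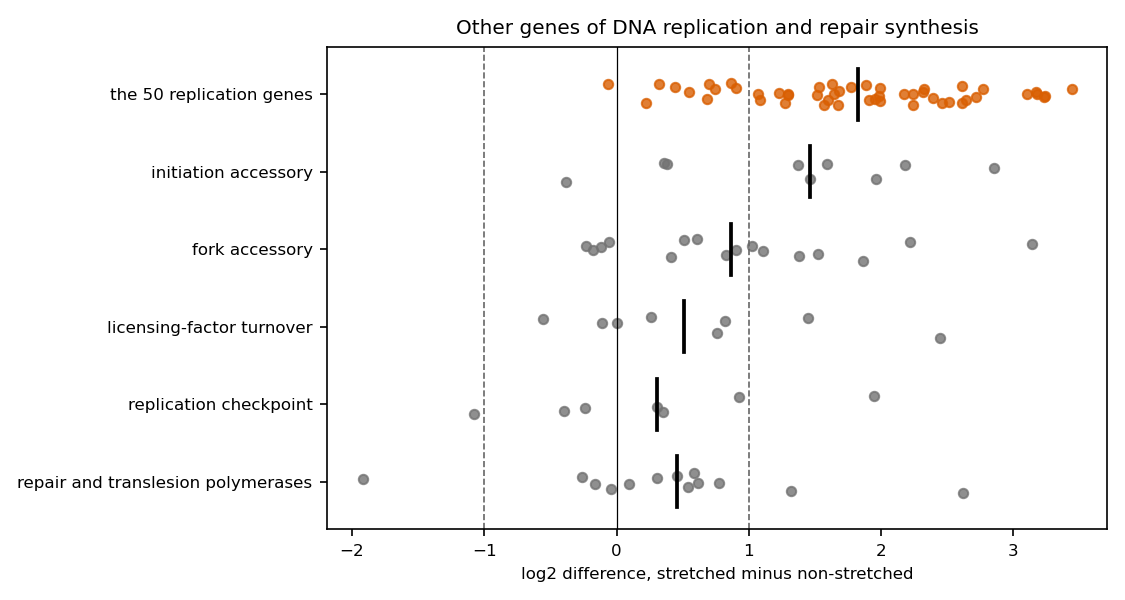
Log2 difference, stretched minus non-stretched, of the 50 replication genes (top row, orange) and of the measured genes of 5 other lists (grey), 1 point per gene by its brightest probe set, with black bars at the medians and dashed lines at 2-fold. The medians are 1.83 for the 50 genes and, downwards, 1.46, 0.86, 0.51, 0.31 and 0.45 for the other lists.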

How the data were processed

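The deposited values are signal intensity on a linear scale, 1 for each of 54675 probe sets (62 of them controls) in each array. Per the labels' protocols, the authors made biotin-labelled cRNA by the standard Affymetrix procedure. How the intensity values were summarised and scaled, and with which software, is not given in the sources used here; the number of arrays, 1 per group, limits precision.

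Names came from the platform annotation, updated through the gene ID to RefSeq symbols (GRCh38.p14); 1801 probe sets listing several genes, of which 4 list PRIM2 with another gene, and 11721 unnamed here were left out. Without rescaling, any signal under its array's 50th percentile was raised to that value (the floor), and log2 stretched minus log2 non-stretched was taken; a fold with 1 value on the floor is a lower bound. The probe set with the highest log2 signal, averaged over the arrays, stood for its gene (the brightest). All 50 genes are named with both signals of that probe set, and another probe set is named where its sign differs or it lies over 1 away on the log2 scale; of each other list, up to 4 genes with the largest absolute difference and the genes of counts of 5 or fewer were named. LRWD1 and ATRIP had no probe set of their own, and MTBP and POLN were not measured. The genes and lists were chosen with earlier results of these data known, so the pattern over the cell cycle genes is no independent support. The alternatives were another floor or none, 5 rescalings, averaged or median probe sets, leaving out probe sets with the endings _x_at or _s_at, and a pseudocount. The script was tested on simulated data. Python 3.11.15, numpy 2.4.6, pandas 2.3.3 and statsmodels 0.14.6 were used.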

Additional observations from a re-analysis of the deposited data

How the results depend on the processing

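No replication gene was at least 2-fold lower under any alternative, and the number at least 2-fold higher ranged from 30 to 41, against 40 as reported; it was 30 without the probe sets that end in _x_at or _s_at, where only 39 genes were left. In that setting 35 of 50 probe sets were at least 2-fold higher, 8 of 9 genes had all probe sets of 1 sign, and the medians were 0.68 (origin licensing), 1.63 (polymerases), 2.14 (clamp loader and Okazaki fragments) and 1.28 (fork protection). With the floor at the 75th percentile, which turns more values into lower bounds, the medians were 1.52 (all genes, of which 49 were measured), 0.83 (origin licensing), 1.99 (helicase), 1.07 (polymerases), 1.52 (clamp loader and Okazaki fragments) and 1.28 (fork protection), and ORC1, POLD1, POLE, DNA2 and WDHD1 were under 2-fold. Centring on the 75th percentile gave 1.72 (all 50 genes) and 2.13 (helicase), and centring on the spike-ins gave 1.94 (all 50 genes), 2.36 (helicase) and 2.02 (polymerases). Over all measured genes the median was 0.12 with the spike-in centring and -0.10 with the 75th percentile, where 6.34% were 2-fold higher and 9.05% 2-fold lower. Removing the loess trend gave 1.74 (all 50 genes), and quantile normalization 1.73 (all 50 genes) and 2.15 (helicase). Averaged probe sets gave 1.70 (all 50 genes), 2.01 (clamp loader and Okazaki fragments) and 1.28 (fork protection), and the median probe set 1.72, 2.01 and 1.28 for the same groups. The pseudocount gave 1.47 (fork protection). CLSPN fell to 0.25 by the median probe set, because its dimmer probe sets are bounds. PRIM2 and POLD3 were each under 2-fold in some rescalings or with the pseudocount, POLE3 passed 2-fold with the spike-in centring, and TIMELESS was under 2-fold, at 0.98, when the _x_at and _s_at types were left out. The causes of other shifts were not tested. No paired analysis was possible because each group has 1 array.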
